A study of Mus musculus with 8 samples.

Results

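The comparison set trained mice against mice kept in the home cage, under both viral vectors of the study. Its members are the libraries whose column names mark spatial object training (4) and those whose names mark the home cage (4). They make up 8 of the 8 libraries of the series, and the vector entered each test as a covariate. The mice were C57BL/6J males, 10 to 12 weeks old, and the tissue was the dorsal hippocampus, into which an AAV2/9 virus had been injected on both sides 3 weeks before training. The control vector carried EGFP under the CMV promoter. The knockdown vector carried CMV-driven EGFP and, under the U6 promoter, a short hairpin RNA that targets Acss2. This enzyme converts acetate to acetyl-CoA. The control vector is named without a hairpin, so hairpin expression and the loss of Acss2 cannot be told apart. Trained mice were handled on 3 days, then met 3 objects in an arena during 3 trials (6 min each, 3 min apart), and were killed 30 min after training. No time of killing is given for home-cage mice. Each combination of vector and state had 2 libraries: eGFP.254 and eGFP.268 (control vector, home cage), eGFP.250 and eGFP.266 (control vector, trained), KD.253 and KD.255 (knockdown vector, home cage), and KD.249 and KD.251 (knockdown vector, trained). The names are the ends of the deposited column names. Whether each library holds RNA of 1 mouse is not stated in the labels. Every p-value here therefore measures only how far libraries differ, and some of that may be technical.

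When a hippocampal neuron fires strongly, calcium entry and MAP kinase signalling activate transcription factors that are already present, chiefly CREB and serum response factor, and these switch on the immediate early genes within minutes. Some of those genes encode transcription factors (the Fos, Jun, Egr and Nr4a families), and others encode proteins that act at the synapse, such as Arc, or in signalling. An unfamiliar arena also raises circulating glucocorticoids, and their receptor induces a further set of genes, including Sgk1, through its own DNA element.

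The libraries differed in ways that training does not define. Reads in genes numbered 272456 in KD.255 and 1484318 in KD.251, against 6537749 to 9863728 in the other 6, so 1 read weighs 15.6 normalized read counts in KD.255, 2.88 in KD.251 and 0.444 to 0.659 elsewhere. A count of 0 reads allows up to 46.7 normalized read counts in KD.255. The trained control library eGFP.250 held Gh at 956 and Prl at 85.8 normalized read counts, both pituitary hormone genes, while no other library exceeded 1.02 for Gh or 0 for Prl (both named after their values were seen). The summed level of the 15 choroid plexus genes was 62487 in eGFP.250 and 16288 in the home-cage control library eGFP.254, against 320 to 2074 in the other 6. The targeted gene, Acss2, was at 58.2 and 82.0 (home cage) and 87.4 and 67.5 (trained) under the control vector. Under the knockdown vector it was at 25.0 in KD.253, 15.6 in KD.255 (1 read), 25.6 in KD.249 and 57.7 in KD.251 (20 reads). All 4 knockdown values lay below all 4 control values, by a narrow margin in KD.251. The place of KD.255 rests on 1 read and is not secure. Markers of the hippocampus were present in every library: Prox1, which marks dentate granule neurons, lay between 330 and 1005 normalized read counts, and Camk2a, the kinase subunit of excitatory neurons, between 21034 and 30463.

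No gene differed between trained and home-cage libraries after adjustment over the 12681 genes tested with limma (smallest adjusted p = 0.873). Without adjustment, 616 genes (4.86%) had p under 0.05, 303 higher (2.39%) and 313 lower (2.47%) in trained libraries. The quasi-likelihood test of edgeR on recovered reads also called 0 genes, with 878 (6.92%) at an unadjusted p under 0.05. DESeq2 called 8 genes higher (0.0631%) and 4 lower (0.0315%), with 6.14% at an unadjusted p under 0.05. The smallest DESeq2 adjusted p of the 8 (3.04e-09) was that of Gh, which eGFP.250 alone held above 1.02 normalized read counts. With limma-voom and a weight for each library, 217 genes were called higher (1.71%) and 452 lower (3.56%) (25.5% at an unadjusted p under 0.05), so the number of calls differed widely between models of the spread. All 4 trained libraries lay above all 4 home-cage libraries for 209 genes (1.65%), and below them for 205 (1.62%). These shares are the background for every count of non-overlapping genes given here. Log2 differences are trained minus home cage on the log2(normalized read count + 1) scale, averaged over the vectors unless a vector is named. Where libraries are left out, the vector with more libraries remaining weighs more in that average. The median log2 difference over all tested genes was 0.03, and 55.1% of the genes were above 0 and 44.9% below. Within a vector, both trained libraries lay above both home-cage libraries for 14.5% (control) and 16.4% (knockdown) of tested genes, and below them for 14.3% and 14.0%.

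The promoters of the genes that the next paragraphs turn on are shown first, with the elements that bind the factors named above. Each window spans 250 bases before to 50 bases after a transcription start of RefSeq (GRCm38.p6) and is written 5′ to 3′ on the gene's own strand. Capitals mark TGACG, the core of the CREB element, in Fos (chr12:85473640-85473939, plus strand) and Fosb (chr7:19309996-19310295, minus strand). They mark the CArG box, the serum response factor element, in Egr2 (chr10:67537316-67537615, plus strand), and the glucocorticoid receptor element GNACANNNTGTNC in Sgk1 (chr10:21993640-21993939, plus strand).
Fos: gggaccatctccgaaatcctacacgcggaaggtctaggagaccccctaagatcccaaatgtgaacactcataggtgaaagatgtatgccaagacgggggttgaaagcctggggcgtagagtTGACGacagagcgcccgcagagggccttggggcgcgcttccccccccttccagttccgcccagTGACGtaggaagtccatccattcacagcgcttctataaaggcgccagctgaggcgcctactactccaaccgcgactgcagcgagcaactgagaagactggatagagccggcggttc
Fosb: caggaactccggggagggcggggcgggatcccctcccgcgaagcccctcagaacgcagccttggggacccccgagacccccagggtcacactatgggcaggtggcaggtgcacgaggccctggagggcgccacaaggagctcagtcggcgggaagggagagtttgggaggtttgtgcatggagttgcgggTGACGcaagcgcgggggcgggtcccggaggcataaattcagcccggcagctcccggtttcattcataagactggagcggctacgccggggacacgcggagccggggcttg
Egr2: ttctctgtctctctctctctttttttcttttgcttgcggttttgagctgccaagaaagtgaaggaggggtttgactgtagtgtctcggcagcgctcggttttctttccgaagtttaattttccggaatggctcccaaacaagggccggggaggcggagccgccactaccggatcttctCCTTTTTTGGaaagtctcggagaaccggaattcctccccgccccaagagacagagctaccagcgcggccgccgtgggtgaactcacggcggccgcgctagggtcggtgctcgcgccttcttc
Sgk1: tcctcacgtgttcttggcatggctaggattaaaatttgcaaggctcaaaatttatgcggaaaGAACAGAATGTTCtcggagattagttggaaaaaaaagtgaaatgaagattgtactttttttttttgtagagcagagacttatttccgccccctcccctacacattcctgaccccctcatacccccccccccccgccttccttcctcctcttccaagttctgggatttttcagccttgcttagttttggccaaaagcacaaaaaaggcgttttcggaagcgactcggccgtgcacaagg
TGACG began 129 and 66 bases before the start in Fos and 60 bases before it in Fosb. The CArG box began 72 bases before the start of Egr2, and 4 of the 5 windows of that gene held one. The receptor element began 188 bases before the start of Sgk1, in 1 of the 6 windows of that gene. Both strands were searched. Of the 32851 windows in the RefSeq table, 20.8% held TGACG (also counted where it lies within the longer TGACGTCA, which 1.79% held), 1.63% a CArG box and 0.475% the receptor element. Per gene, counting any of its windows, these shares were 23.0%, 1.81% and 0.537% of 27025 genes. Of the 30 immediate early transcription factors listed, 23 had a window; by the same count per gene, 17 of these (73.9%) held TGACG and 3 (13.0%) a CArG box. Of 18 glucocorticoid-responsive genes with a window, 3 (16.7%) held the receptor element. Such matches describe the letters of these windows only. Arc and Egr1 are not shown.

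Sgk1 had the largest log2 difference of the 10 higher genes that the naming rule took. This kinase, induced by glucocorticoids and serum, regulates ion channels and transporters (GRCm38, chromosome 10, 21882184 to 21999903). The home-cage libraries eGFP.254, eGFP.268, KD.253 and KD.255 held 84.3, 156, 102 and 171 normalized read counts. The trained libraries eGFP.250, eGFP.266, KD.249 and KD.251 held 426, 258, 241 and 482. Every trained library lay above every home-cage library under either vector. The means were 128 ± 41.7 and 352 ± 120 (SD, n = 4 each). Their log2 difference was 1.44 (SE 0.30, limma adjusted p = 0.873; DESeq2 adjusted p = 0.00173). It was 1.52 under the control vector and 1.36 under the knockdown vector. Of the 18 tested glucocorticoid-responsive genes, 15 were higher and 3 lower in trained libraries, with a median log2 difference of 0.36 against 0.03 for all tested genes. Limma called 0 of them, and 4 had an unadjusted p under 0.05. The trained libraries were all higher for 3 of the 18: Sgk1, Arrdc2 (0.92, SE 0.30), an arrestin-domain protein of receptor trafficking, and Klf15 (0.58, SE 0.22), a Krüppel-like transcription factor. Ddit4, an inhibitor of mTORC1 signalling, had a log2 difference of 0.97 (SE 0.34), with values of 31.1 to 126 in home-cage and 115 to 154 in trained libraries, which overlapped. In KD.255, Arrdc2 and Ddit4 rested on 2 reads each and Klf15 on 4. Without both shallow libraries the median of the list was 0.54, in a fit where the control vector weighed more.

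Among the transcription factors of the immediate early class, Fosb was the clearest. It encodes a partner of Jun proteins in the AP-1 factor (chromosome 7, 19302696 to 19310051). Home-cage libraries held 43.6, 36.4, 76.5 and 77.8 normalized read counts, and trained libraries 117, 134, 178 and 98.1, in the same order of libraries as for Sgk1. The groups did not overlap, although the home-cage knockdown libraries already stood above the home-cage control libraries. The 77.8 in KD.255 came from 5 reads. The means were 58.6 ± 21.6 and 132 ± 34.0 (SD, n = 4 each). The log2 difference was 1.20 (SE 0.26, limma adjusted p = 0.873; DESeq2 adjusted p = 0.00389). Under the control vector it was 1.63 and under the knockdown vector 0.77.

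Fos and Egr2 are described for each vector in turn. Fos, another partner of Jun proteins (chromosome 12, 85473890 to 85477273) was at 37.8 and 15.5 in home-cage control libraries and at 131 and 103 in trained control libraries. Under the knockdown vector it was at 87.7 and 140 in the home cage and at 139 and 107 after training. The trained libraries thus spanned 103 to 139 and overlapped the home-cage libraries through KD.255 alone, whose 140 came from 9 reads; KD.253 lay below every trained library, although above both home-cage control libraries. The log2 difference of Fos averaged 1.17 (SE 0.44, limma adjusted p = 0.873), from 2.21 under the control vector and 0.13 under the knockdown vector. Egr2, a zinc finger factor (chromosome 10, 67535475 to 67542188), read 11.6 and 7.54 in home-cage and 82.7 and 61.7 in trained control libraries. It read 68.5 and 109 in home-cage and 164 and 51.9 in trained knockdown libraries. Its log2 difference was 2.80 under the control vector and 0.10 under the knockdown vector (average 1.45, SE 0.57). The knockdown value rested on 7 reads in KD.255 and 18 in KD.251, and the deeper KD.253 and KD.249 stood at 68.5 and 164. Without both shallow libraries the average log2 difference was 1.69 for Fos and 2.28 for Egr2. Both of those libraries carry the knockdown vector, so the control vector weighed more in these averages. The training difference under the knockdown vector minus that under the control vector was -2.08 for Fos and -2.71 for Egr2, and neither passed (limma adjusted p = 1.00). Without the shallow libraries this contrast was -1.56 for both Fos and Egr2, and it was called in 0 of 20 alternatives for either gene.

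**Figure D1:**
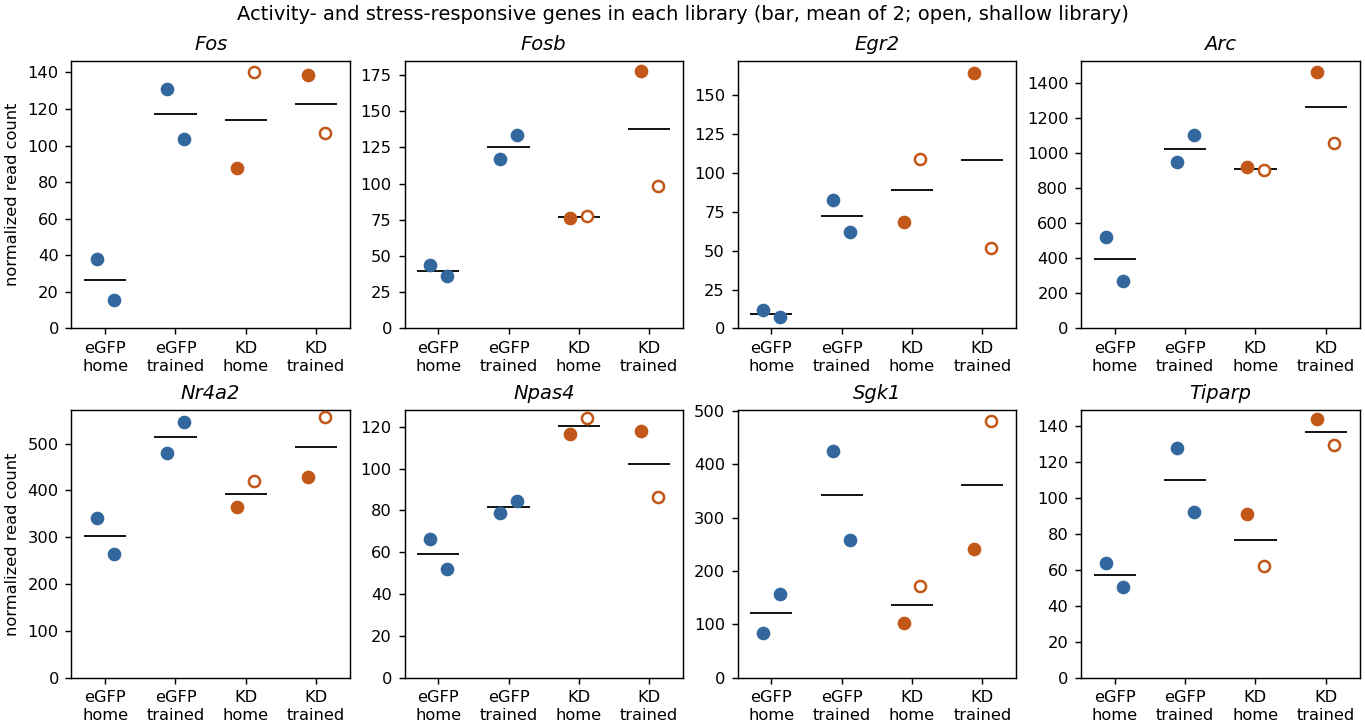
Normalized read count (vertical axes, linear from 0) of 8 activity- and stress-responsive genes in each library, by vector (eGFP, control; KD, knockdown) and state; points are libraries, open points the shallow KD.255 and KD.251, bars means of 2. Sgk1, Fosb, Arc, Nr4a2 and Tiparp are higher in all 4 trained libraries, whereas Fos and Egr2 overlap, Fos through the shallow KD.255 (140, from 9 reads) alone.

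The other transcription factors of the panel had smaller average differences. Junb, an AP-1 subunit, had a log2 difference of 0.72 (SE 0.25), Egr1 0.59 (SE 0.26) and Egr4 0.66 (SE 0.40), all with overlap. In KD.255, Junb rested on 5 reads and Egr4 on 3. Egr1 had 1.00 under the control vector and 0.18 under the knockdown vector. It was at 2561 in the home-cage library KD.253 and at 1919 to 2835 in trained libraries. Nr4a2, an orphan nuclear receptor (chromosome 2, 57106830 to 57124003), lay at 263 to 420 in home-cage and 429 to 557 in trained libraries without overlap (0.55, SE 0.16). Npas4, a calcium-dependent factor of inhibitory synapse formation, was at 66.3, 51.9, 117 and 124 in home-cage and at 78.6, 84.7, 118 and 86.5 in trained libraries. Its libraries followed the vector more than training, with a log2 difference of 0.11 (SE 0.22). Nr4a1 (0.32, SE 0.26) overlapped as well.

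Over the whole class of immediate early transcription factors, 23 of the 28 tested genes were higher and 5 lower in trained libraries, with a median log2 difference of 0.52. Limma called 0 of the 28 (8 at an unadjusted p under 0.05), and 3 (10.7%) did not overlap: Fosb, Nr4a2 and Egr3 (0.54, SE 0.17), the last named after its values were seen. Both trained libraries lay above both home-cage libraries for 16 of the 28 under the control vector, where 14.5% of all tested genes did so. Under the knockdown vector this held for 4, where 16.4% of all tested genes did so. The medians were 0.60 and 0.18. The averaged median of 0.52 was 0.30 without KD.255 and 0.32 without eGFP.268. Each library's median deviation from the home-cage mean of these genes was -0.03 in eGFP.254 and -0.52 in eGFP.268. It was 0.49 in KD.253 and 0.06 in KD.255, and between 0.25 and 0.72 in the trained libraries. KD.253, a home-cage library, thus stood above 3 of the 4 trained libraries.

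Arc, whose protein drives the removal of AMPA receptors from synapses (chromosome 15, 74669083 to 74672570), led the effectors. Home-cage libraries held 523, 271, 920 and 902 normalized read counts and trained libraries 951, 1103, 1467 and 1062. The groups did not overlap, but the lowest trained value, in eGFP.250, exceeded the highest home-cage value, in KD.253, by little. The log2 difference was 0.95 (SE 0.26, limma adjusted p = 0.873), with 1.44 under the control vector and 0.45 under the knockdown vector. Of 28 tested effectors 21 were higher and 7 lower (median 0.29), and 3 did not overlap (10.7%). These were Arc, Tiparp (0.89, SE 0.20), a mono-ADP-ribosyltransferase, and Pcsk1 (0.67, SE 0.28, named after its values were seen), a prohormone convertase. Pcsk1 rested on 3 reads in KD.255 and 18 in KD.251. Homer1, a postsynaptic scaffold, had a log2 difference of 0.28 (SE 0.15), and Bdnf, the neurotrophin, 0.08 (SE 0.16). The 13 tested genes of MAP kinase and receptor tyrosine kinase feedback divided into 8 higher and 5 lower (median 0.17). Among them Dusp6, a phosphatase of ERK, had 0.17 and Errfi1, an inhibitor of the EGF receptor, 0.62 (SE 0.24). Dusp1, a stress kinase phosphatase, had 0.13 and changed sign when eGFP.268 was left out (-0.26).

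All 16 panel genes other than Acss2 had a positive average difference, as did 55.1% of all tested genes. The panel was chosen with earlier results of these data known, so this count is not independent support. Of the 16, 4 lay above without overlap (Fosb, Arc, Nr4a2 and Sgk1), against 1.65% of all tested genes. Both trained libraries exceeded both home-cage libraries for 12 of the 16 under the control vector and for 6 under the knockdown vector. The shares over all tested genes were 14.5% and 16.4%. Both lay below for 0 and 1 of the 16, against 14.3% and 14.0% of all tested genes. Acss2 itself had a log2 difference of 0.54 (SE 0.33), which was 0.11 without the shallow libraries.

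By rank rather than by panel, the 10 higher and 10 lower genes with the smallest limma p among non-overlapping genes included few textbook activity genes. P4ha1, the catalytic subunit of the collagen prolyl hydroxylase (chromosome 10, 59323296 to 59373304), ranked first. It was at 263, 236, 260 and 218 normalized read counts in home-cage and at 334, 424, 472 and 421 in trained libraries. The home-cage libraries lay close together, and the lowest trained library, eGFP.250, was well above them. The log2 difference was 0.75 (SE 0.15, limma adjusted p = 0.873; DESeq2 adjusted p = 0.0275). Clk1, a kinase that phosphorylates SR splicing factors, was at 712 to 902 in home-cage and 1106 to 1249 in trained libraries. Its log2 difference was 0.54 under the control vector and 0.55 under the knockdown vector (average 0.54, SE 0.11; DESeq2 adjusted p = 0.0179). The other higher genes, beside Sgk1, Fosb and Tiparp, were the adhesion molecule Amigo2 (0.84), the proteoglycan Spock3 (0.51), the zinc finger genes Zfp276 (0.80) and Zfp948 (0.73), and Gnai3 (0.55), an inhibitory G protein subunit.

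Sez6 had the smallest p of the 10 lower genes. It encodes a membrane protein of dendrites (chromosome 11, 77930800 to 77979048) and was at 1328, 1006, 1053 and 918 in home-cage and at 737, 731, 521 and 681 in trained libraries. The lowest home-cage library, KD.255, lay above the highest trained library, eGFP.250. The log2 difference was -0.69 (SE 0.14, limma adjusted p = 0.873; DESeq2 adjusted p = 0.0137). Fibcd1, a gene of CA1 pyramidal neurons (chromosome 2, 31813290 to 31846005), was at 223, 279, 164 and 187 in home-cage and at 99.3, 117, 130 and 107 in trained libraries. The home-cage control libraries were the highest, so the log2 difference was larger under the control vector (-1.20) than under the knockdown vector (-0.57). This contrast between the vectors was not called (limma adjusted p = 1.00). Rtn4rl2, of the Nogo receptor family (chromosome 2, 84871924 to 84886710), had the largest difference of the lower genes, -1.18 (SE 0.28, limma adjusted p = 0.873; DESeq2 adjusted p = 0.0108). Its trained libraries lay at 63.1 to 70.6 normalized read counts, while home-cage libraries split into 220 and 218 (eGFP.254 and KD.253) and 94.0 and 124 (eGFP.268 and KD.255). Gprin1, a neurite outgrowth protein, was at 762 to 926 in home-cage and 551 to 576 in trained libraries (-0.54, SE 0.12; DESeq2 adjusted p = 0.0318). The others were Sema6b (-0.81), a transmembrane semaphorin, Coro2b (-0.54), an actin-binding coronin, Sox12 (-0.85), a transcription factor, Fam210b (-0.58), a mitochondrial protein, Dact3 (-0.84), an antagonist of Wnt signalling, and Shank1 (-0.60), a postsynaptic scaffold. In KD.255, Tiparp, Amigo2 and Zfp948 rested on 4 reads each, Zfp276 on 3 and Rtn4rl2 on 8. All 20 genes kept their direction in every alternative processing. They were chosen for not overlapping, so leaving out libraries could not have reversed them. With values corrected for GC content, Rtn4rl2 had -0.89, Gprin1 -0.40 and Shank1 -0.41.

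**Figure D2:**
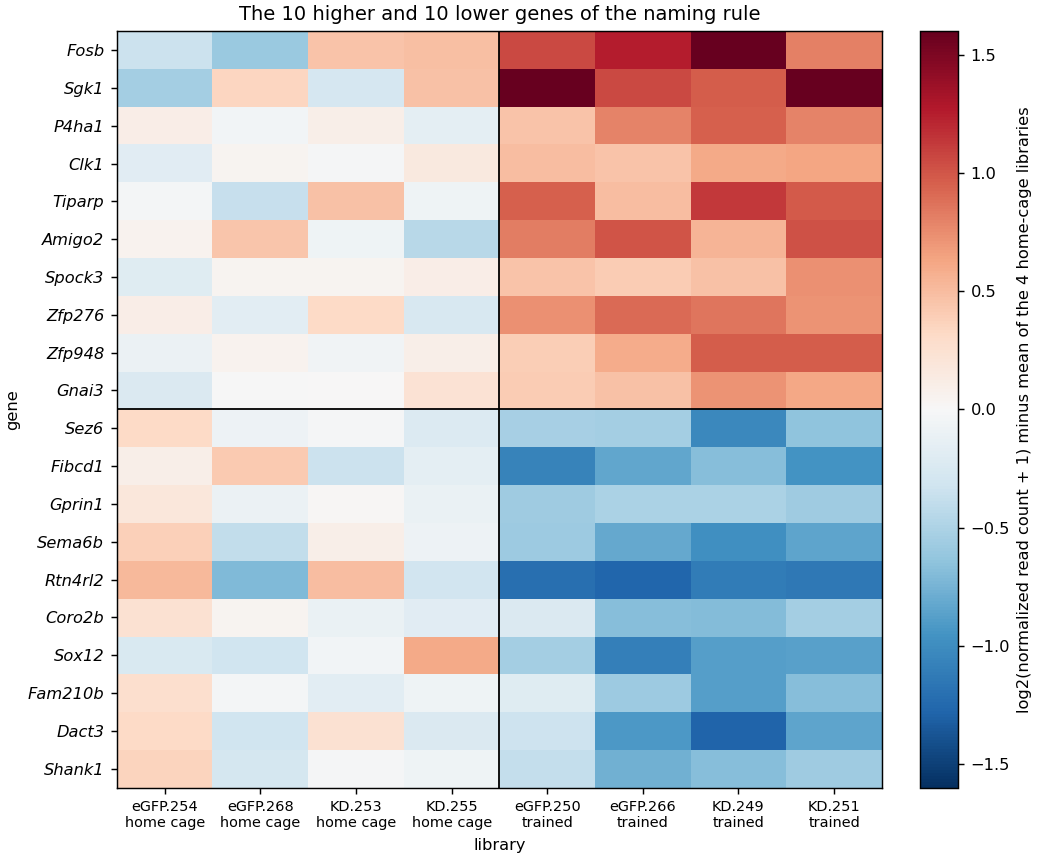
Log2(normalized read count + 1) minus the mean of the 4 home-cage libraries (colour) for the 10 higher and 10 lower genes of the naming rule (rows) in the 8 libraries (columns, home cage left of the line). Sgk1 and Fosb are the most strongly coloured of the upper 10 genes and Rtn4rl2 of the lower 10; the genes were chosen for not overlapping.

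The training differences under the control and the knockdown vector come from separate libraries and can be set side by side. Across the 12681 genes they had a Pearson coefficient of 0.11 and a Spearman coefficient of 0.13, and 7087 genes (55.9%) had the same sign. For the 4706 genes averaging 200 normalized read counts or more, the Spearman coefficient was 0.20. Genes are not independent replicates. Depth also differed between the knockdown libraries. All 509 tested genes with a log2 difference above 2 under the knockdown vector had 0 reads in KD.255, a shallow home-cage library. Limma called 0 genes within the control vector (181, or 1.43%, at an unadjusted p under 0.05) and 0 within the knockdown vector (568, or 4.48%). Within the control vector edgeR called 0 (3.34% unadjusted) and DESeq2 4 higher (0.0315%; 1.83% unadjusted). Within the knockdown vector edgeR called 0 (2.27% unadjusted) and DESeq2 0 (1.27% unadjusted). For the difference between the vectors' training differences, limma called 0 genes, with 112 (0.883%) at an unadjusted p under 0.05. There edgeR called 0 (98, or 0.773%, unadjusted) and DESeq2 0 (52, or 0.41%, unadjusted). Besides Fos and Egr2, the smallest p among genes with a lower training difference under the knockdown vector belonged to Rhov, Pdzrn3 and Cit. Rhov, a small GTPase, was at 45.5 and 25.8 in trained control and at 2.56 and 2.88 in trained knockdown libraries, the last being 1 read. The contrast of Rhov also depends on its home-cage values, of which that in KD.255 rested on 4 reads. Cit, the citron kinase, was at 301 and 302 in home-cage and 438 and 403 in trained control libraries, and at 372 and 373 in home-cage and 299 and 231 in trained knockdown libraries. Cit thus went opposite ways under the vectors (0.47 and -0.50), and this contrast did not pass (limma adjusted p = 1.00). On the other side stood Glis3, Capn3, Sema5a, Rfx3 and Pde8b. Glis3, a granule neuron marker, was at 176 and 164 in home-cage and 78.1 and 83.2 in trained control libraries, and at 170 and 93.3 in home-cage and 156 and 170 in trained knockdown libraries. The 16 tested genes of the granule neuron list had a median log2 difference of -0.50 under the control and 0.56 under the knockdown vector, with summed levels of 3764 (KD.255) to 7248 in home-cage and 4137 (eGFP.250) to 7730 in trained libraries. Both extremes of low level were single libraries, and their part in the values of Glis3 was not tested.

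**Figure D3:**
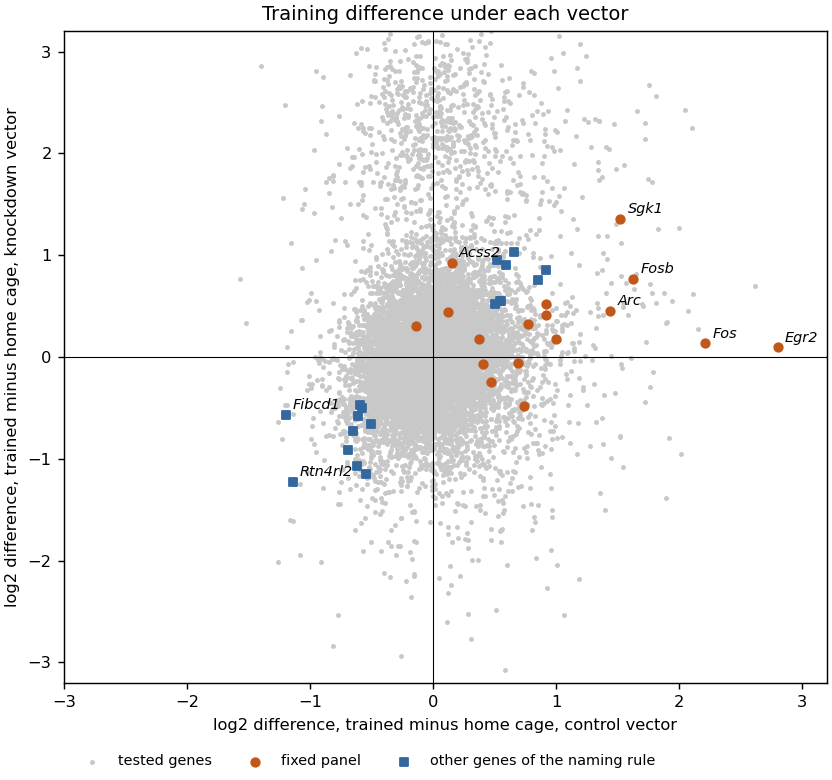
Log2 difference, trained minus home cage, under the control vector (horizontal) and the knockdown vector (vertical) for the tested genes (grey; 19 lie outside the axes, and those above 2 on the vertical axis had 0 reads in KD.255), the fixed panel (orange) and the other genes chosen for the smallest p without overlap (blue). Sgk1 (1.52, 1.36) lies off both axes, while Fos (2.21, 0.13) and Egr2 (2.80, 0.10) lie along the control axis, with vertical positions that rest on 9 and 7 reads in KD.255.

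Most heat shock and chaperone genes had higher means in trained libraries, and most interferon-stimulated genes lower ones. Of 10 tested cytosolic heat shock genes 9 were higher and 1 lower (median 0.33); Hsph1, a cochaperone of the Hsp110 family, was at 1203 to 1867 in home-cage and 1875 to 2441 in trained libraries without overlap (0.44, SE 0.14). Hspa8, the constitutive Hsc70, had a log2 difference of 0.29. Of 18 endoplasmic reticulum chaperones 14 were higher and 4 lower (median 0.17, and 0.10 without eGFP.250), and Dnajb11, a cochaperone of BiP, alone did not overlap (0.24). Of the 24 interferon-stimulated genes 4 were higher and 20 lower (median -0.28), with medians of 0.16 under the control and -0.62 under the knockdown vector. The averaged median was 0.29 without KD.251 and 0.15 without both shallow libraries. Their summed level was 819 to 1284 in all control libraries, 11067 and 6485 in home-cage knockdown libraries, and 12033 and 2544 in trained knockdown libraries. Among the knockdown libraries this list therefore separated KD.251 from KD.249 more than training separated the pairs. The 16 clock genes were split 11 to 5 (median 0.09, and -0.014 without the shallow libraries). Per2, a repressor of the clock, was at 180 to 233 in home-cage and 264 to 370 in trained libraries without overlap (0.53, SE 0.13), whereas Per1 overlapped (0.28, SE 0.25). Nr1d1, the repressor REV-ERB alpha, had -0.48 (SE 0.17), with overlap between 345 and 387. Dio2, the deiodinase that activates thyroid hormone, was among the DESeq2 calls (0.58, SE 0.16; DESeq2 adjusted p = 0.0497) although KD.255, at 731, overlapped the trained range of 702 to 888.

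Genes of histone acetylation and acetyl-CoA supply, close to the study's subject, had medians near that of all genes. Of 25 histone acetyltransferases and deacetylases 13 were higher and 12 lower (median 0.01, from -0.10 without KD.255 to 0.05 without KD.253), and 1 did not overlap. This was Sirt6, a deacetylase of histone H3, at 29.0 to 33.7 in home-cage and 11.5 to 23.5 in trained libraries (-0.77, SE 0.33). The values in KD.255 and KD.251 were 2 and 4 reads. Hdac3 had -0.29. Of 17 genes of acetyl-CoA supply 10 were higher and 7 lower (median 0.04, and -0.014 without KD.251), with Pdhb, a subunit of pyruvate dehydrogenase, at -0.44 and Slc16a7, a monocarboxylate transporter, at 0.47. Sterol synthesis genes were higher in 21 of 24 (median 0.33, 0 without overlap), but their median was 0.14 without the shallow libraries and 0.13 without KD.251. The 2.17 of Idi1, an isomerase of isoprenoid synthesis, rested on 0 reads in KD.255. Fdft1, the squalene synthase, had 0.36. Of 73 cytosolic ribosomal protein genes 54 were higher and 19 lower (median 0.14, and 0.077 without KD.251); 4 lay above without overlap (Rpl7, Rpl22, Rpl35 and Rpl7l1, between 0.19 and 0.34, named after their values were seen) and Rpl32 below (-0.36). Of 70 genes of the respiratory chain and ATP synthase 44 were higher and 26 lower (median 0.07, and -0.047 without KD.251), with Ndufb7 at 0.53 and Ndufa3 at -0.50.

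The lists of synaptic, channel and axon guidance genes held more lower than higher members, but their medians were small and depended on single libraries. Of 29 glutamate receptor genes 9 were higher and 20 lower (median -0.11, and -0.00128 without eGFP.268), including Gria1, an AMPA receptor subunit (-0.28, SE 0.14). Of 24 presynaptic genes 10 were higher and 14 lower (median -0.04, and 0.02 without eGFP.268), with Syn1 at -0.48 and Vamp2, a vesicle SNARE, at -0.50. Of 24 postsynaptic scaffold and CaMKII genes 6 were higher and 18 lower (median -0.08, and -0.018 without eGFP.250). With GC content corrected, the presynaptic median was 0.000444 and the postsynaptic median -0.012, and under the knockdown vector alone they were -0.000531 and 0.019. Shank1 and Camk2a (-0.28, SE 0.13, named after its values were seen) lay below without overlap and Dlg1, the scaffold SAP97, above (0.35). Of 36 voltage-gated channel genes 7 were higher and 29 lower (median -0.05, and 0.00591 without eGFP.250). Among them Kcnab1, an auxiliary subunit of potassium channels, lay below without overlap (-0.26, SE 0.12, named after its values were seen). Axon guidance genes were split 17 to 27 (median -0.07, and 0.026 without eGFP.250), with Nrp2 above (0.30), Plxna2 below (-0.28, named after its values were seen), and Unc5a, a netrin receptor, at -0.63 with overlap.

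Markers of cell types are given beside these lists, since in bulk tissue fewer cells of a type and less RNA per cell cannot be told apart. Oligodendrocyte markers were higher in 17 of 20 and lower in 3 (median 0.47), with 8 at an unadjusted p under 0.05. Trf, the iron carrier transferrin, was at 484, 406, 1198 and 793 in home-cage and at 1022, 877, 1569 and 1287 in trained libraries. The groups overlapped through KD.253, but each vector's trained pair lay above its home-cage pair. The log2 difference was 0.82 (SE 0.18, limma adjusted p = 0.873; DESeq2 adjusted p = 0.046). Ermn, a cytoskeletal protein of myelin-forming cells, was at 437, 345, 661 and 653 in home-cage and at 609, 879, 890 and 1004 in trained libraries (0.72, SE 0.16; DESeq2 adjusted p = 0.0493). The myelin genes Mobp and Mal had 0.86 and 0.79, and Cldn11, a tight junction protein of myelin, alone did not overlap (0.64, SE 0.19, named after its values were seen). The summed level of the list was 12742 to 22038 in home-cage and 21230 to 32340 in trained libraries. Its median deviation from the home-cage mean was lowest in eGFP.268 (-0.53). The median difference was 0.29 without that library and 0.30 without eGFP.266. Oligodendrocyte precursor markers were higher in 7 of 8 (median 0.40, 0.24 without KD.255 and 0.098 with library weights), with Vcan at 0.40 and Lhfpl3 at 0.58.

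Markers of several other cell types were more often lower. Markers of endothelial and mural cells were lower in 17 of 19 (median -0.29; summed level 1824 to 2224 in home-cage and 1408 to 1831 in trained libraries). Cldn5, the tight junction protein of the blood-brain barrier, was at 43.9 to 62.2 in home-cage and 25.1 to 37.3 in trained libraries without overlap (-0.79, SE 0.25), as was Vtn (-0.51), a pericyte marker. Microglial markers were lower in 14 of 17 (median -0.23), with C1qa and C1qc, complement subunits, both at -0.70 and overlapping. C1qa and C1qc rested on 7 and 11 reads in KD.255 and on 13 and 19 in KD.251. The summed level of the list was 1763 and 1961 in home-cage and 1776 and 1666 in trained control libraries. In knockdown libraries it was 3847 and 3546 in the home cage, and 3763 (KD.249) and 2328 (KD.251) after training. Astrocyte markers were lower in 11 of 15 (median -0.15, and -0.26 without eGFP.268), among them Fgfr3 (-0.48, without overlap) and Aldoc (-0.37), while the connexin gene Gjb6 lay above without overlap (0.55). In KD.255, Cldn5 and Gjb6 rested on 4 reads each and Vtn on 10. Pyramidal neuron markers were lower in 13 of 17 (median -0.22, and -0.12 without eGFP.250 or with GC content corrected). These markers had medians of -0.36 under the control vector and 0.03 under the knockdown vector. Their summed level was 32909 to 39898 in home-cage and 28164 to 33300 in trained libraries, and Fibcd1 and Camk2a did not overlap; Mpped1, a marker of CA1, had -0.72. Inhibitory neuron markers were lower in 13 of 18 (median -0.21, and -0.016 without KD.249). The 14 tested choroid plexus genes were all higher (median 0.90), with 0 that did not overlap and a median of -0.32 without eGFP.250 and -0.079 without eGFP.268. Thalamus and habenula (5 of 8 higher) and neocortex (5 of 8 higher) gave medians of 0.13 and 0.06 (0.066 and -0.074 without eGFP.250), and the 6 blood genes were too low to be tested (summed level 0 to 9.57). Whether these shifts of cell types have a part in the differences of Fosb, Sgk1, Fibcd1 and the other genes was not tested.

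**Figure D4:**
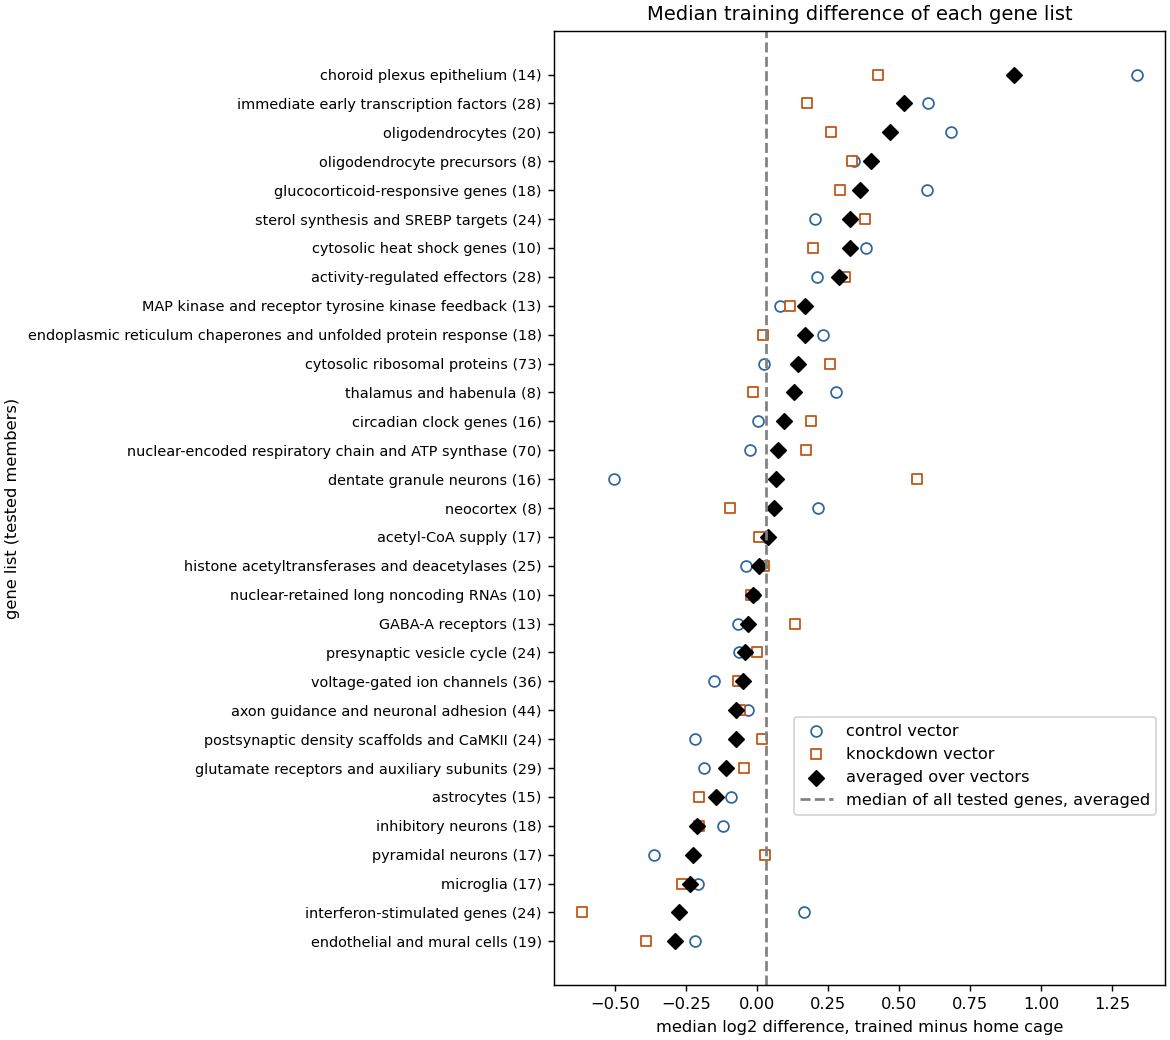
Median log2 difference, trained minus home cage (horizontal), of the tested members of each gene list (vertical, number tested in brackets), averaged over the vectors (diamonds) and under each vector (open symbols); the dashed line is the median of all tested genes (0.03). Choroid plexus (0.90), immediate early transcription factors (0.52) and oligodendrocytes (0.47) are highest and endothelial and mural cells (-0.29) lowest. Granule neurons and interferon-stimulated genes are among the lists that differ in sign between the vectors.

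The difference between trained and home-cage libraries also followed the base composition of transcripts. GC content was known for 12346 of the tested genes (97.4%). Across these genes its Spearman coefficient with the log2 difference was -0.24 (-0.22 under the control and -0.18 under the knockdown vector), and -0.38 in genes that averaged 200 or more. With the genes divided by GC content into 5 bins of equal size, the median difference went from 0.11 in the lowest bin to -0.09 in the highest. Of the genes with all trained libraries above, 206 had a known GC content, with a median of 47.6%. For the 202 genes below the median was 55.0%, against 50.9% over all. In the lowest bin 71 genes lay above and 7 below, and in the highest bin 16 above and 84 below. The lower genes Rtn4rl2 (68.7%) and Gprin1 (59.9%) were GC-rich, and the higher genes Clk1 (40.9%) and Tiparp (43.9%) were GC-poor. Fosb (56.7%) and Arc (59.0%) were GC-rich but higher after training. The trend was strongest in single libraries. The coefficient of GC content with the deviation of a library from the 8-library mean was 0.51 in eGFP.254 and 0.32 in KD.253, both home cage. It was -0.30 in KD.251, -0.17 in eGFP.268, -0.10 in KD.255, and between -0.03 and -0.01 in the other trained libraries. After a correction of each library for GC content, 197 genes lay above and 224 below without overlap. Of these, 120 and 139 were among the genes found without it. Limma again called 0. Fosb then had a log2 difference of 1.28, Sgk1 1.39 and Fibcd1 -0.76.

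**Figure D5:**
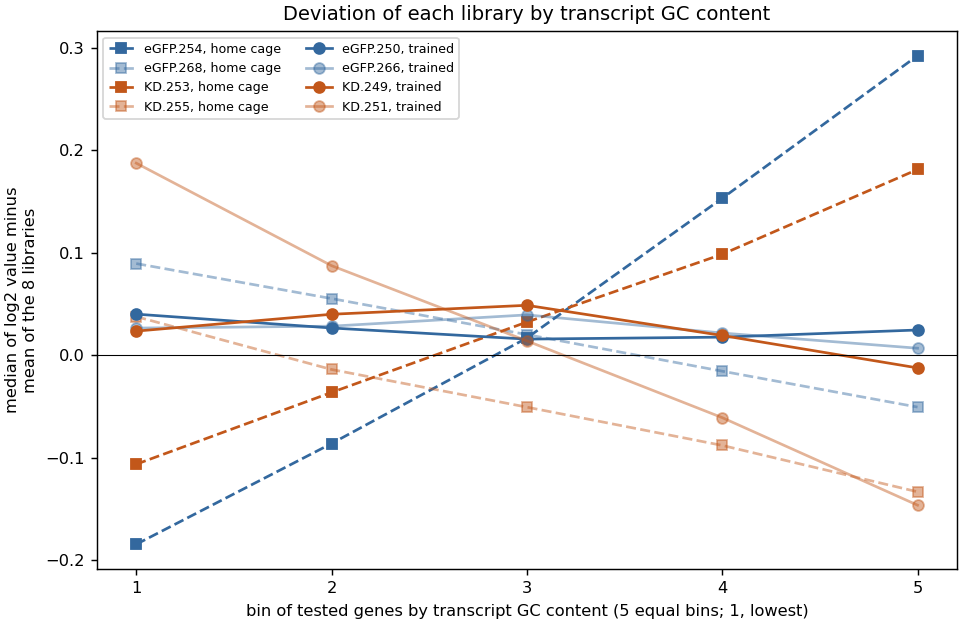
Median deviation of each library's log2 values from the mean of the 8 libraries (vertical) in 5 equal bins of the tested genes by transcript GC content (horizontal, 1 lowest); squares with dashed lines are home-cage and circles with full lines trained libraries, blue control and orange knockdown vector. The home-cage libraries eGFP.254 (0.29 in the highest bin) and KD.253 (0.18) climb with GC content, KD.251 (-0.15) falls, and eGFP.250, eGFP.266 and KD.249 stay near 0.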

How the data were processed

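Polyadenylated RNA of 8 dorsal hippocampus libraries was prepared with a ScriptSeq v2 kit for Illumina sequencing, per the labels' protocols. Per the submitters' processing notes, the tools were bcl2fastq 02.14.01.07, STAR 2.3.0, HTSeq 0.6.1, DESeq and bedtools, and the build was mm10. Annotation and strand setting were not given in the sources used here, so reads of overlapping and antisense genes may be shared. The authors deposited a normalized signal for each gene and library; all values (100%) were whole multiples of the smallest value of their library within a relative tolerance of 1e-06, and reads were recovered by that division. Column names show the group but not the labels' replicate number. The table held 24498 genes and 5 summary entries of the counter, which were left out. Between 16.4% and 20.3% of reads lay in no gene.

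Genes with a mean of at least 10 were tested with limma 3.58.1 (R 4.3.3) with an intensity trend on log2(value + 1), training plus vector (residual degrees of freedom 5, prior 4.71). Fits of the 4 groups gave the values within vectors and their difference. Adjustment was by Benjamini-Hochberg, with a threshold of 0.05. The limma and edgeR code was checked on simulated reads with known changes and a common dispersion, which does not test how these libraries vary. Alternatives were edgeR 4.0.16 and DESeq2 1.42.0 on recovered reads (0 and 12 calls), library weights, pseudocounts, filters, TMM scaling, no vector term, libraries left out and, chosen after seeing the data, a GC correction, 2 sets of libraries by column number and edgeR without the shallow libraries. The genes named are a panel of 17, the 10 higher and 10 lower genes with the smallest p among those without overlap, up to 4 per list (smallest p, then largest difference) and 5 of each sign for the interaction. The comparison, panel and lists were chosen with earlier results of these data known. Gene positions are from GENCODE M21 (GRCm38), promoters from RefSeq. Values of some genes are not reported here.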

Additional observations from a re-analysis of the deposited data

Results flagged for a closer look

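Within the 4 trained or the 4 home-cage libraries, 5 values stood far from the nearest other library of their state by Dixon's test, among 192 groups of 4 tested (96 genes). Chance alone flags about 1 in 20 groups when the values of a group come from the same normal distribution. Here each group mixed both vectors and many of the genes were chosen by their values. The number flagged therefore cannot be weighed against that rate. Egr4 stood at 110 normalized read counts in the trained library KD.249, above the 73.4 to 78.5 of the other trained libraries. Spock3 stood at 672 in the trained library KD.251, Dio2 at 731 and Glis3 at 93.3 in the home-cage library KD.255, and Pcsk1 at 24.4 in the home-cage library eGFP.254. The Glis3 value of KD.255 came from 6 reads. The granule neuron list, of which Glis3 is a member, was also low in that library, and any link was not tested.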

How the results depend on the processing

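For genes called in the averaged comparison, DESeq2 (8 higher, 4 lower) and library weights (217 higher, 452 lower) differed from the 0 of limma, and DESeq2 called 4 genes higher within the control vector. The cause was not tested. Leaving out 1 library gave 0 to 0 calls for the averaged comparison, but 0 to 1096 higher and 0 to 136 lower genes within the knockdown vector and 0 to 673 higher and 0 to 19 lower for the interaction. All of these calls came without KD.253, which leaves KD.255 alone and assumes that it varies like the other groups. Of the 1096 and 673 genes, 735 and 547 had 0 reads in KD.255, as do 823 tested genes. With fewer libraries compared, more genes separate fully: 306 to 614 above and 286 to 552 below with 1 library left out, and 773 above and 955 below without both shallow libraries. Npas4 reversed without eGFP.268 (-0.032; range with 1 library left out -0.032 to 0.27). Dusp1 reversed with library weights (-0.18), without eGFP.250 (-8.73e-05) and without eGFP.268 (-0.26; range with 1 library left out -0.26 to 0.31). Bdnf reversed without both shallow libraries (-0.00792), in edgeR without them (-0.00281) and with GC content corrected (-0.049). Of the medians of 31 gene lists, 13 changed sign in at least 1 of 21 alternatives: among them histone acetyltransferases and deacetylases (11 of 21 kept the sign, range -0.10 to 0.054), granule neurons (13 kept it, with -0.24 without both shallow libraries), interferon-stimulated genes (18, highest 0.29 without KD.251), the respiratory chain (18, lowest -0.047 without KD.251), the presynaptic list (18) and the clock genes (19, lowest -0.025 in edgeR without the shallow libraries). Of 651 such medians, 16 moved by more than the spread between libraries. Of 2042 gene values under alternatives, 61 passed the threshold where the reported one did not, 47 of them with library weights. No paired analysis was possible because the columns carry no replicate numbers of the labels. Depth limits KD.255 most, where 1 read weighs 15.6 normalized read counts.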
